A study of Caenorhabditis elegans with 8 samples.

Results

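The genes described here are those of 7 families that make the digestive, antimicrobial and yolk proteins of the worm. They were the protein-coding genes of the RefSeq WBcel235 gene table whose symbol begins with asp-, cpr-, lys-, ilys-, spp-, pho- or vit-, so the rule uses names and no measured value, although the families were picked with earlier results of these data known. There were 89 such genes among 19983 protein-coding genes. A gene was scored by the deposited regions that shared at least 1 base with its span, and 24 of the 89 members carried a region, with 29 regions among them out of 1207.

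The regions come from RNA immunoprecipitation followed by sequencing (RIP-seq) of young adult Caenorhabditis elegans kept at 25 °C and crosslinked for 30 min in 2% formaldehyde. The tagged strain, WD656, carries the allele on49 of the gene F22D6.2 on chromosome I, which puts a 3xFLAG tag on the protein MSTR-1, and N2 is the wild-type strain without a tag. The 8 samples were the MSTR-1 RIP, the MSTR-1 input, the N2 RIP and the N2 input, with 2 biological replicates each. All were made from lysate of whole worms, so no tissue was sorted, and the number of intestinal cells cannot be told apart from the RNA per cell. The deposited table lists regions specific to the tagged strain with 1 set of values per region, named after the second RIP replicate, so no value below has a replicate error and no test between samples was possible.

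The intestine of the worm is a tube of large cells that digests bacteria, stores fat and takes part in defence. Aspartyl and cysteine proteases, lysozymes and acid phosphatases break down food in the gut lumen or in lysosomes, the acidic organelles that degrade proteins, lipids and nucleic acids. Saposin-like proteins act on membranes, and some of those of the worm form pores in bacteria. In the adult hermaphrodite the intestine also secretes vitellogenins, the yolk proteins, which oocytes take up through the receptor RME-2.

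Regions were found in 6 of the 7 families. Among the members as a whole, 24 of 89 genes (27.0%, exact 95% binomial interval 18.1 to 37.4) carried a region, against 4.77% of all protein-coding genes (954 of 19983). The lysozyme genes had regions in 5 of 10 (50%, 18.7 to 81.3) and the vitellogenin genes in 3 of 6 (50%, 11.8 to 88.2). The aspartyl protease genes followed with 7 of 17 (41.2%, 18.4 to 67.1) and the cathepsin B-like cpr genes with 3 of 8 (37.5%, 8.52 to 75.5). Lower shares were seen for the acid phosphatase genes, 2 of 12 (16.7%, 2.09 to 48.4), and for the saposin-like spp genes, 4 of 30 (13.3%, 3.76 to 30.7). None of the 6 ilys genes, which encode lysozymes of the invertebrate type, had a region (0%, exact 95% interval up to 45.9). The intervals of all 7 families overlap each other. They treat genes as independent draws, which copies of a family are not, and no test between families was made. The members made up 0.445% of all protein-coding genes and 2.52% of those with a region.

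**Figure D1:**
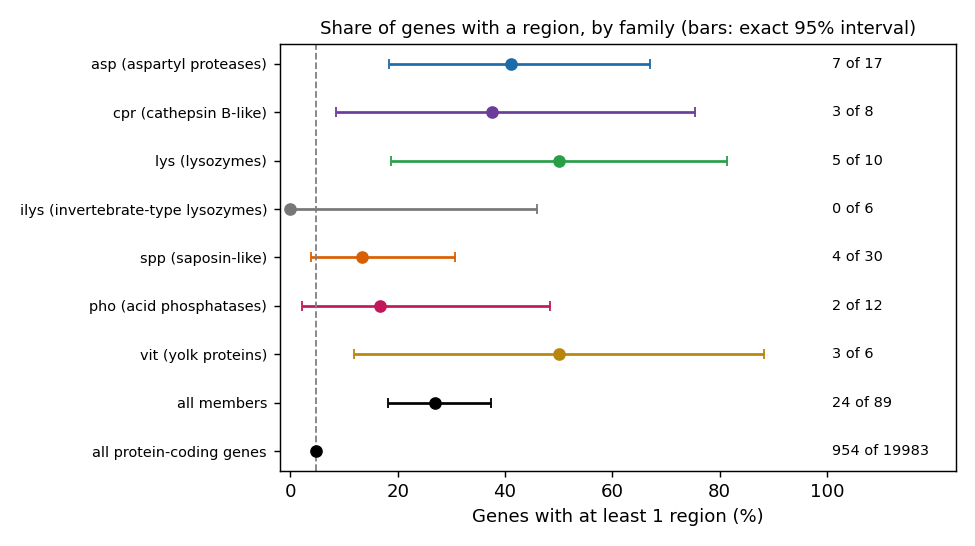
Percent of genes with at least 1 region (x axis) for the 7 families, for all members and for all protein-coding genes (y axis), with exact 95% binomial intervals as bars and the counts at the right. The dashed line marks the 4.77% of all protein-coding genes; the lys, asp, cpr and vit families lie furthest to its right and the ilys family is at 0.

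A stricter rule changed which families were represented. The fold is a deposited ratio over control, taken from the layout of the columns to be that at each region's summit. Requiring a fold of at least 2 left 10 of the 89 members (11.2%), against 2.98% of all protein-coding genes. These were 3 asp, 2 lys, 3 spp and 2 pho genes, while no cpr and no vit gene remained. Requiring a −log10 q-value of at least 5 in the authors' table kept 21 of 89 (23.6%, against 2.9% of all protein-coding genes). Leaving out regions at the lowest control level of the list kept 23 of 89 (25.8%, against 3.73%). More than 1 region lay in 4 members (4.49%, against 1.05%): asp-14, pho-11, spp-8 and vit-3.

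The regions in members were deeper and less steeply enriched than those elsewhere. The read pileup at the summit and the control level below it were recovered from the authors' fold and p-value for every region. Most recovered control levels were not whole numbers. For them, reads is a unit on the scale of the pileup and not a count of control reads. The median pileup was 193 reads in the 29 member regions, against 55 in all 1207 regions, and the median control level was 112 reads, against 23.0. A control level above 60 reads was found in 17 of 29 member regions (58.6%), against 283 of 1207 (23.4%). The median fold was 1.73 in the member regions, against 2.10 in all regions, and 11 of the 29 (37.9%) reached a fold of 2, against 58.4%. The part that RNA abundance has in the share of members with a region was not tested.

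Folds were therefore set beside those of regions of like control level, in 4 classes. The lowest control level of the list, 13.49 reads, is shared by 304 regions. At this level the 3 member regions had folds of 2.69 to 4.07, against a median of 2.42 over the class. Folds there differ by pileup alone, and whether the level was measured at each region is unknown here. Above this floor and up to 60 reads, the 9 member regions had a median of 2.26, against 2.14 over 620 regions. From above 60 to 300 reads their median was 1.60 in 9 regions, against 1.70 over 175. Above 300 reads it was 1.503 in 8 regions, against 1.54 over 108. In all, 16 of 29 member regions exceeded the median of their class, so the members' folds lay on both sides of those of other regions with like coverage.

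**Figure D2:**
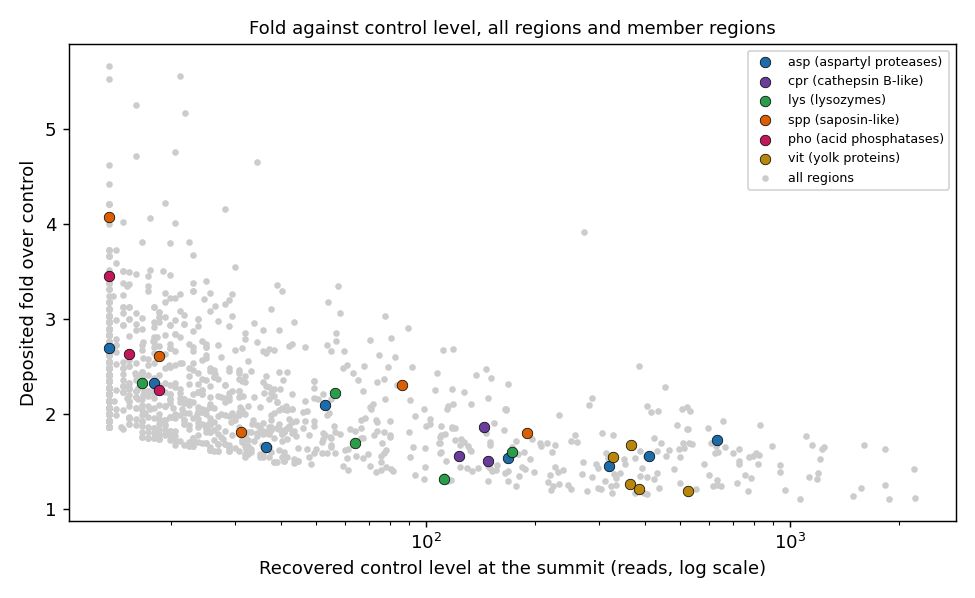
Deposited fold over control (y axis) against the recovered control level at the summit in reads (x axis, log scale) for all 1207 regions (grey) and the 29 member regions (coloured by family). The pho regions lie at the left, at 13.5 to 18.5 reads, and the vit regions at the right, at 327 to 527 reads and folds below 1.7.

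The aspartyl proteases of the asp family are relatives of pepsin and cathepsin D. Read counts given for genes here and below are recovered pileups at the summit, not all reads of a region. The values they are set over are recovered control levels, which are not counts. The member with the highest pileup was asp-6, with a region on chromosome V at 8268122 to 8268874. Its pileup was 1092 reads over a control level of 630 (95% Poisson interval of the pileup 1028 to 1159). Its fold of 1.73 was modest, but its −log10 q of 59.8 ranked 26th of 1207 and was the highest of any member. asp-5, on the same chromosome at 8272486 to 8273886, had a fold of 1.56 from 643 reads over 411. Its −log10 q was 23.7, the third highest of the member regions after those of asp-6 and vit-3. In gene order asp-12 stands between these genes, without a region, at 430 bp from the nearest one.

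asp-3 and asp-4, proteases with a described role in the death of degenerating neurons in the worm, are on chromosome X. asp-3 had a fold of 1.46 at 6791202 to 6791600, from 467 reads over 320. asp-4 had 2.09 at 13219081 to 13221389, from 112 reads (92.2 to 135) over 53.0. The region of asp-4 covered 93.2% of the gene's span, the largest share of any member. On chromosome V at 9204210 to 9204631, asp-2 had 261 reads over 169, a fold of 1.55.

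The highest folds of the family were at low coverage. asp-14, on X, had a region of fold 2.69 at 6444252 to 6444542, from 38 reads (26.9 to 52.2) over the floor, and a second of 1.66 at 6444933 to 6446563, from 61 reads over 36.4. asp-13 had 2.33 at chromosome V, 8642387 to 8642743, from 43 reads (31.1 to 57.9) over 17.9. Its −log10 q was 5.03, and the second region of asp-14 had the lowest of the family, 2.42. The 10 other asp genes had none, among them asp-1, which is known as an intestinal gene and whose nearest region lay 45312 bp away.

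The cpr genes encode cysteine proteases like cathepsin B, and 3 of 8 carried a region, each on chromosome V. cpr-9 had the highest fold, 1.87, at 12003172 to 12003943, from 270 reads (238.8 to 304) over 144. cpr-5 had 1.56 at 1132823 to 1133503, from 193 reads over 123. cpr-1, a protease of the gut, had 1.51 at 11976203 to 11976658, from 224 reads over 148. All 3 lay in the class of control levels above 60 to 300 reads, in which the median fold of all regions was 1.70, and cpr-9 was above it while cpr-5 and cpr-1 were below. cpr-8, next to cpr-5, had no region.

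The lys genes encode lysozymes, enzymes that cut bacterial cell walls, and lys-7 is known from studies of worm immunity. lys-4 on chromosome IV had the highest fold, 2.33 at 11621535 to 11621893, from 40 reads (28.6 to 54.5) over 16.6. lys-2 had 2.22 at chromosome V, 10280387 to 10281102, from 126 reads (105 to 150.0) over 56.2, and its −log10 q of 13.5 was the highest of the family. Both exceeded the median of 2.14 in their class of control level. lys-1, the neighbour of lys-2, had 1.60 at 10278324 to 10279021, from 277 reads over 172. lys-7 had 1.70 at chromosome V, 3481775 to 3482053, from 109 reads over 63.8. lys-8 had 1.32 at chromosome II, 5587010 to 5587345, with a −log10 q of 1.72, the lowest of any member. The median of their class was 1.6984, and all 3 were below it, lys-7 narrowly at 1.69666. In gene order lys-1, lys-2 and lys-3 are consecutive and lys-3 had no region, and likewise lys-4 is followed by lys-5 and lys-6 without one.

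The spp genes held the highest fold of any member and were the largest family, with 26 of 30 genes lacking a region. spp-8, on chromosome IV, had a fold of 4.07 at 8482913 to 8483434, from 58 reads (44.0 to 75.0) over the floor, which ranked 16th of 1207. A second region of spp-8, at 8481892 to 8482264, had 1.81 from 57 reads over 30.98. The pileups of the 2 regions were thus nearly equal, and the control levels differed. spp-10, separated from spp-8 by the gene hlh-12, had 2.61 at 8477748 to 8478402, from 50 reads (37.1 to 65.9) over 18.5.

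The other spp genes with a region are short genes on chromosome X with far more reads. spp-3 had a fold of 2.31 at 7315041 to 7315271, from 200 reads (173 to 229.7) over 86.2, and its −log10 q was 23.4. This was 1.36 times the median fold of its class, the largest such ratio of any member with a control level above 60. spp-14 had 1.80 at 7725987 to 7726298, from 344 reads over 190.2. spp-3 begins a run of neighbouring genes with spp-2, spp-6, spp-4 and spp-5, and those 4 had no region. spp-14 is the neighbour of the vitellogenin gene vit-1, which had none either. spp-1 and spp-5, known as pore-forming proteins, had no region.

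The pho genes encode acid phosphatases, and pho-1 is known as an intestinal one. pho-1 had a fold of 3.45 at chromosome II, 5235061 to 5235651, from 49 reads (36.3 to 64.8) over the floor, ranking 47th of 1207. pho-11, also on II, had 2.63 at 9932604 to 9933211 from 42 reads (30.3 to 56.8) over 15.3. Its second region at 9933990 to 9934274 had 2.26 from 43 reads over 18.5. All 3 exceeded the median of their class, and none had a control level above 18.5 reads. pho-4, next to pho-1, had no region, and its nearest was 606 bp away.

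The vit genes gave the opposite picture, with high coverage and small folds. vit-3, on X, had 3 regions. That at 3567565 to 3567965 had a fold of 1.68 from 615 reads (567 to 666) over 366 and a −log10 q of 30.1, the second highest of any member. Those at 3568325 to 3568576 and 3568844 to 3569111 had folds of 1.27 and 1.19, from 460 reads over 363 and 628 reads over 527. vit-4, its neighbour, had 1.21 at 3562816 to 3563927, from 468 reads over 386, in a region that also covers the non-coding RNA gene F59D8.3. vit-5 had 1.55 at 3408032 to 3408388, from 507 reads (464 to 553) over 327, with a −log10 q of 17.8. Each of the 5 vit regions had a control level above 300 reads, where the median fold of all regions was 1.54, and 2 of them exceeded it. vit-1, vit-2 and vit-6 had no region. vit-3, vit-4 and vit-5 are close copies, and the sources used here do not say how reads that fit several copies were placed, so which of these genes the reads came from is uncertain. The same holds for other close copies among the members.

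**Figure D3:**
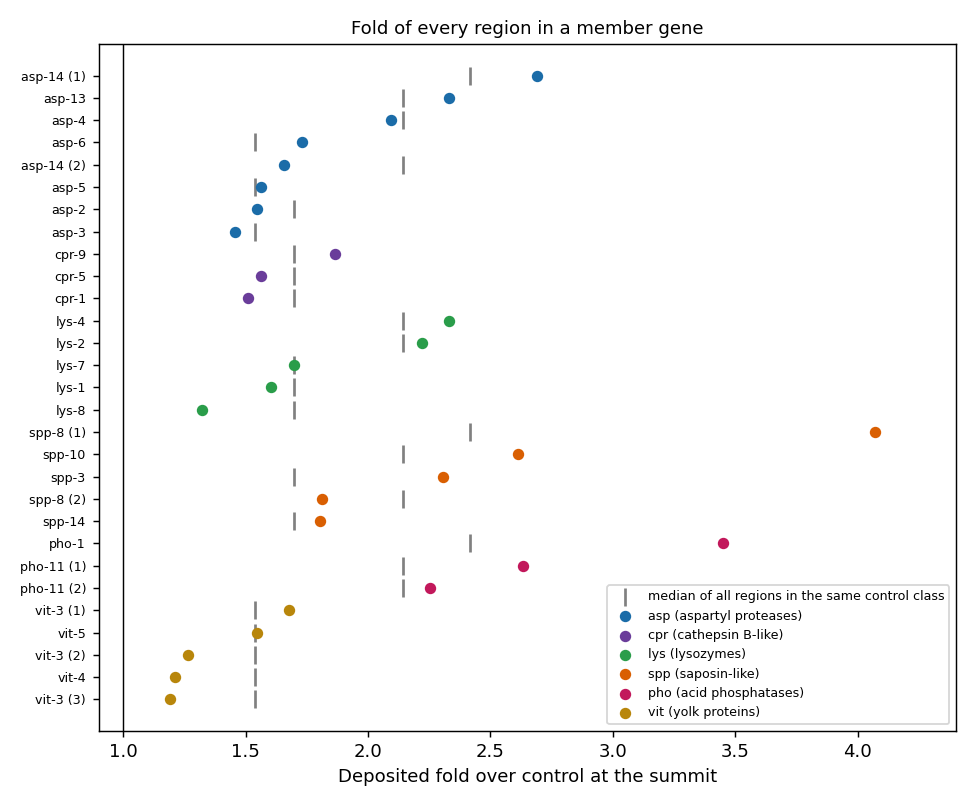
Deposited fold over control at the summit (x axis) for each of the 29 member regions, by gene and family (y axis, numbered by fold where a gene has several). Grey ticks mark the median fold of all regions in the same class of control level; the first spp-8 region and the pho-1 region lie furthest to the right of theirs, and vit-3 (3) and vit-4 furthest to the left among the vit regions.

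The regions lay inside the genes. Each of the 29 was wholly within its member's span and overlapped no other protein-coding gene. Counting only regions over no other protein-coding gene, 24 of 89 members had one, against 4.24% of all protein-coding genes. After a shift of 100 bp 21 of 29 stayed inside, and after −100 bp 24 did. The share wholly inside a gene, with or without a shift, was not counted over all regions. The share of the span covered by regions had a median of 36.2% over the 24 genes, from 6.96% in vit-5 to 93.2% in asp-4, and it was above 50% in 9 genes. The summit was within 10% of the span from an end in 5 regions, those of asp-4, asp-14, pho-11, vit-3 and vit-5. The gene table gives no strand and no exons, so the ends cannot be named and the regions cannot be placed in coding sequence or untranslated parts.

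**Figure D4:**
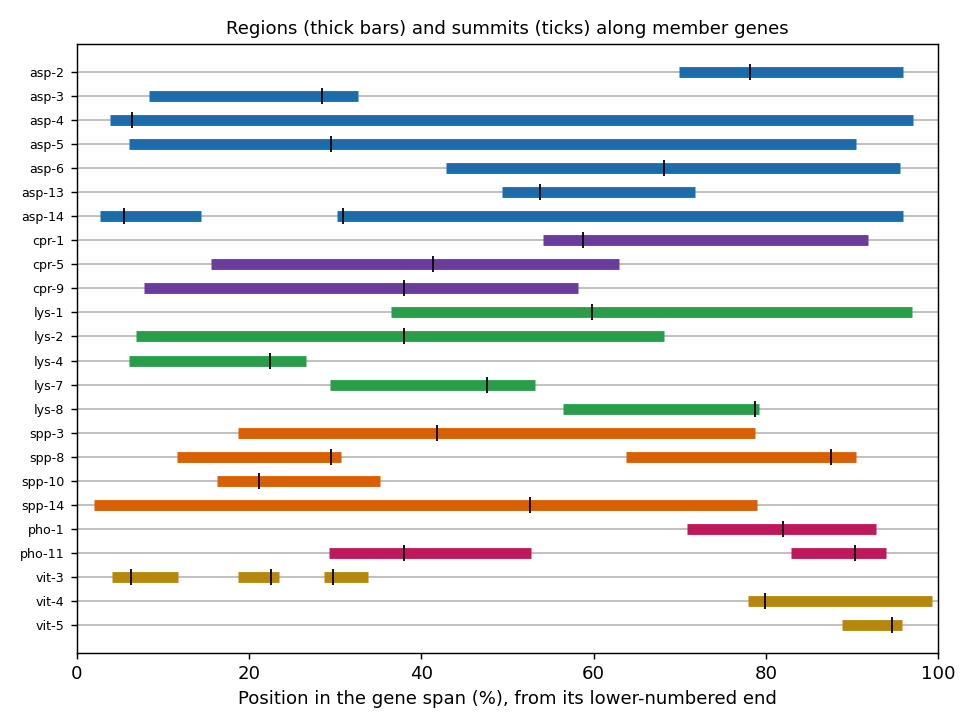
Regions (thick bars, coloured by family) and their summits (black ticks) along the span of the 24 member genes with a region (y axis), in percent of the span from its lower-numbered end (x axis). Regions cover the largest shares of the span in asp-4, asp-5, asp-14 and spp-14, and small parts of the vit genes.

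No member was at the margin of the 1-base rule, since every region that touched a member lay within it. The 65 members without a region had their nearest one at a median distance of 36832 bp. In 4 of them it was within 1000 bp: asp-12 at 430 bp, pho-4 at 606 bp, spp-2 at 724 bp and lys-3 at 998 bp, each time the region of a neighbouring member. For a member without a region the table gives no value, so its RNA level and its enrichment are unknown here.

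By chromosome, regions were in 10 of 33 members on V, 8 of 22 on X, 3 of 16 on IV, 3 of 10 on II, 0 of 5 on I and 0 of 3 on III. The shares of all protein-coding genes there were 3.48%, 4.98%, 5.24%, 3.83%, 5.53% and 6.85%. The families differ in length. Of the 24 members with a span of up to 1000 bp, 20 were spp genes, and 2 of the 24 (8.33%) carried a region, against 3.81% of all protein-coding genes of that span. From above 1000 to 2000 bp the count was 14 of 39 (35.9%, against 4.39%). It was 5 of 19 from above 2000 to 4000 bp (26.3%, against 4.02%) and 3 of 7 above 4000 bp (42.9%, against 7.16%), those 3 being vit genes. Among the spp genes of up to 1000 bp, 2 of 20 had a region.

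Other genes of the same organs were also listed. Of 113 genes in 4 lists outside the families, 109 were matched by symbol and 21 of these (19.3%) had a region, against 4.77% of all protein-coding genes. The list of lysosomal enzymes and transporters had 12 of 54 and that of yolk assembly, uptake and regulation 4 of 14. That of gut structure and identity had 5 of 28, and that of antimicrobial peptides 0 of 13 (exact 95% interval up to 24.7%). In the lysosomal list, the only region of ncr-2 also covers the gene col-91. Highest by fold was nuc-1, a lysosomal nuclease, at 3.48, followed by the acyl-CoA dehydrogenase gene acdh-1 at 3.38 and by erm-1, an ezrin-like protein of the gut's apical membrane, at 3.12. cpz-2, a cathepsin Z-like protease, had 2.97 and rme-1, which acts in endocytic recycling, had 2.56. eps-8 had 2.48 in a region that also covers 5 annotated 21ur genes. ctsa-2 had 2.42 and aagr-1, of the acid alpha-glucosidase family, also 2.42. The ceramidase genes asah-1 and asah-2 had 2.26 and 2.01, aagr-4 had 2.08 and imp-2 had 2.05. The genes were chosen by fold alone, without regard to control level, and asah-2 is placed beside asah-1 out of that order. The folds of asah-2, aagr-4 and imp-2 were below the median of 2.14 in their class of control level. That of aagr-1 equalled its class median of 2.42 to the digits given, and the other folds listed here exceeded theirs. The receptor gene rme-2 had no region.

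Marker genes of cell types were looked up as well. Of 10 intestinal markers, 2 had a region: the member cpr-1 and vha-6, a gut subunit of the proton pump, at 1.44. The members asp-1 and vit-2 are also on that list and had none. The markers elt-2, elt-7 and ges-1 had none. Regions lay in 0 of 5 markers of epidermis, 1 of 3 of body wall muscle (unc-15), 1 of 4 of neurons (snb-1), 0 of 4 of germline, 1 of 3 of sperm (msp-31, in a region shared with aagr-2) and 0 of 2 of spermatheca and sheath. Of all protein-coding genes, 4.77% had a region. The upper limits of the exact 95% intervals were 55.6% for the intestinal markers and 52.2 to 90.6% for the other lists. With so few genes per list, the counts cannot rank the cell types, and a count of 0 cannot be told apart from the share of all genes. The label intestinal thus rests on what is known of the families, and some members act elsewhere.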

How the data were processed

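Values came from 1 deposited table without a header, whose first 10 columns have the layout of a narrow peak file. STAR and deepTools were used, per the submitters' processing notes. The sources used here name no peak caller, control library, build or rule for strain-specific regions. For each region the authors deposited a score, a fold (a ratio over control) and −log10 p- and q-values. The deposited positions and an unlabelled 11th column complete it.

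Pileup and control level were recovered as the pair for which the fold equals (pileup + 1) / (control + 1) and the p-value the Poisson probability of more reads than the pileup. The pileup was whole, with a tolerance of 0.02, for 27 of 29 member regions and 1166 of 1207 in all. The control levels were mostly not whole and are not counts of control reads. The solving was tested on simulated data made with the same formulas, so whether the caller used them was not tested. Reads are not independent molecules, and the intervals cover counting error only.

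Regions were matched to RefSeq WBcel235 gene spans (1 shared base); no build is named for the regions. The members and lists were chosen with earlier results of these data known. Every member with a region is named. Listed genes outside the families are named up to 12 by fold, and ncr-2 and aagr-2 for a shared region. Members without a region are named by neighbourhood. A few well-known genes were also singled out as lacking a region after their values were seen. Protein sequence was not analysed here. Scripts ran in Python 3.11.15 with scipy 1.17.1, numpy 2.4.6, matplotlib 3.10.9 and pandas 2.3.3.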

Additional observations from a re-analysis of the deposited data

Results flagged for a closer look

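The unlabelled 11th column of the deposited table, which no comparison above uses, was above 0 in 10 of 29 member regions (34.5%), against 299 of 1207 regions (24.8%). It is given because no header says what it counts. The 10 regions were those of asp-3, asp-5, asp-6, cpr-5, cpr-9, spp-14, vit-4 and vit-5 and 2 of the 3 of vit-3. The value was 1 in each except cpr-9, where it was 2. It moved with coverage. Above a control level of 300 reads 7 of 8 member regions (87.5%) were above 0, against 72.2% of all regions there. From above 60 to 300 reads 3 of 9 were (33.3%), against 61.1%. From above the floor to 60 reads 0 of 9 were, against 17.1%, and at the floor 0 of 3, against 2.63%. The members' share was thus above that of all regions in the highest class and below it in the other 3, and the higher share over all classes goes with the larger number of member regions at high control levels. No lys and no pho region was among them.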

How the results depend on the processing

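The counts per family were the same when the region's midpoint or the whole region had to lie in the gene, and when regions over 2 or more protein-coding genes were left out. Every member region lay wholly inside its gene and over no other protein-coding gene, so these settings could not change a count. Requiring a fold of at least 2 left 10 members, with 3 asp, 2 lys, 0 cpr and 0 vit genes. Requiring a −log10 q of at least 5 left 3 lys and 2 vit genes, and the other families kept their counts. With regions above the control floor, 1 pho gene remained. The median fold of member regions was 3.45 at the floor, where folds under 1.86 do not occur in the list, and 1.69 above it; by the highest region of each gene it was 1.77. No paired analysis was possible because the only file given here lists 1 set of values per region and none per sample, so no fit over the 8 samples could be made and no replicate could be left out.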
